A study of Mus musculus with 28 samples.

Results

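Chaperones are the proteins that fold, refold and assemble other proteins, and each compartment of the cell has its own set. The 37 genes described here comprise 12 of the cytosol, 7 of the mitochondria and 18 of the endoplasmic reticulum (ER), chosen by name and compartment out of 43430 gene identifiers in the deposited tables. All 37 are listed in the 3 tables used. They were measured by RNA sequencing in regulatory T (Treg) cells of mice, sorted as CD4+ YFP-Foxp3+ CD25+, all on the C57BL/6NJ strain. Uqcrfs1 encodes RISP, the Rieske iron-sulfur protein of respiratory complex III. Mice of 3 weeks gave 4 RISP_WT and 4 RISP_KO libraries, the latter lacking RISP. Chimeras of 8 to 12 weeks gave 4 libraries of RISP_Chimera_WT and 4 of RISP_Chimera_KO. The in vitro arm used RISP WT cells from mice of 3 weeks in 4 groups of 3 libraries. One stayed untreated, and the others received an inhibitor of the respiratory chain: piericidin for complex I (1 µM), 3-NPA for complex II (500 µM) or antimycin A for complex III (1 µM). The labels give neither the Cre driver, nor the host cells left in the chimeras, nor the length of exposure. They also do not say whether replicates were separate mice, so p-values reflect how much these libraries vary, and that variation may be purely technical.

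Chaperone genes are controlled in blocks. In the cytosol, heat shock factor 1 switches on Hsp70 and Hsp90 genes when unfolded proteins accumulate. In the ER, the sensors ATF6, IRE1 and PERK detect unfolded secretory proteins, and ATF6 and the spliced product of Xbp1 switch on the ER chaperones through the ER stress response element (ERSE). Mitochondria import most of their proteins unfolded, and Hspa9 pulls them in while Hspd1 and Hspe1 fold them. Defects of the respiratory chain are known to engage ATF4, a transcription factor of the integrated stress response.

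The ERSE matches are shown because they were found only in ER members among those with a promoter window. Windows of 250 bases before to 50 after each start were taken from RefSeq (GRCm38.p6), where 31 of the 37 members matched. Hspa8, Hsp90aa1, Hsp90ab1, Hspa9, Hyou1 and Manf had no entry. The ERSE was searched as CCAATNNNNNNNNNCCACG, which occurred on either strand in 37 of 27025 genes with a window (0.137%). Of the 16 ER members with a window 7 held it, against 0 of 9 cytosolic and 0 of 6 mitochondrial members. Each stretch is printed 5′ to 3′ on the strand of its gene with the ERSE in capitals.
Hspa5, chr2:34772005-34772063, plus strand: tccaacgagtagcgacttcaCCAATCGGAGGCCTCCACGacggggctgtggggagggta
Pdia6, chr12:17266471-17266529, plus strand: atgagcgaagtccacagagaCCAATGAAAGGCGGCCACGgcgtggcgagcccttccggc
Canx, chr11:50325780-50325838, minus strand: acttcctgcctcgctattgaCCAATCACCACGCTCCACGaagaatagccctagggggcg
Dnajc3, chr14:118937807-118937865, plus strand: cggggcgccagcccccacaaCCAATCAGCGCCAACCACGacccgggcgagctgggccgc
Calr, chr8:84847055-84847113, minus strand, ERSE in reverse: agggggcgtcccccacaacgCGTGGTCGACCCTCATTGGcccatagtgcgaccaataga
Creld2, chr15:88819500-88819558, plus strand, ERSE in reverse: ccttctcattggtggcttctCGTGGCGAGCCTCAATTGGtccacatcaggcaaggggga
Hsp90b1, chr10:86705513-86705676, minus strand, 1 ERSE in each orientation: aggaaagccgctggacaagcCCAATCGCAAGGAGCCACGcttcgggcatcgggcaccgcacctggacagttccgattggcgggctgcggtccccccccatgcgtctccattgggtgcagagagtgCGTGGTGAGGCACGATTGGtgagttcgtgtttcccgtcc

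A second form, the ERSE-II, was searched as ATTGG and CCACG with 1 base of any kind between them. It occurred in 12 of 27025 genes (0.0444%), among them Herpud1 and Dnajb11. In Dnajb11 the match ATTGGCCCACG lay after the start, and in Herpud1 the match lay before it.
Herpud1, chr8:94386357-94386407, plus strand: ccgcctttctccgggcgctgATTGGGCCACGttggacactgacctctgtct

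The heat shock element, searched as GAANNTTCNNGAA, occurred in 179 of 27025 genes (0.662%) and in 3 members, Hspd1, Hspe1 and Hsph1. Hspd1 and Hspe1 encode the chaperonin HSP60 and its lid HSP10, and they lie head to head on chromosome 1 with overlapping annotated ends. Another window of Hspd1, chr1:55088194-55088493, held no match. The match of Hspd1 and Hspe1 is the same piece of DNA, shown on the strand of Hspe1, with overlapping matches on both strands in capitals.
Hspe1 and Hspd1, chr1:55088039-55088096, plus strand: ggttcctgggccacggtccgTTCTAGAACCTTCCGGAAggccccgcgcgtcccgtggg
In Hsph1 the match TTCTGGAAAGTTC lay after the start. The composite site of ATF4 and C/EBP, searched as TGATGNAA, occurred in 4.51% of genes and in 1 member, Herpud1. A match is a run of letters and no evidence of binding. Only exact letters were searched, so a window without a match may still hold a near form.

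Uqcrfs1, the targeted gene, matched the labels. It read 5.19 to 7.27 CPM (a gene's counts scaled to the size of its library) in the 4 RISP_KO libraries against 151 to 189 in RISP_WT, and 4.83 to 11.3 in RISP_Chimera_KO against 72.7 to 87.7 in RISP_Chimera_WT. Total counts per library ranged from 28446051 to 50769961 for RISP_WT and RISP_KO, from 20437386 to 31019835 for the chimera groups and from 2707199 to 3445930 for the in vitro groups. The 6 Treg cell markers, Foxp3 and Il2ra among them, summed to 3203 CPM or more in every library. Foxp3 itself read 33.1 ± 2.25 CPM in RISP_WT. RISP_WT and RISP_KO libraries were made with the Takara kit and the chimera libraries with the NEB kit. Cells of the in vitro arm also came from mice of 3 weeks, and their kit is not given here. Levels are therefore not compared across the tables.

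The members differ widely in level. Per kilobase of exon, Hsp90ab1, the constitutive cytosolic Hsp90, ranked first in untreated cells at 1417 ± 49.97 CPM per kilobase (SD, n = 3), followed by Hspa8, the constitutive Hsp70, at 366 ± 12.1. Calr, a lectin chaperone of the ER, followed at 298 ± 16.02. Next came Cct2, a subunit of the cytosolic chaperonin, at 253 ± 18.4. Hspa5, the ER Hsp70 also called BiP, and Hspd1 stood at 183 ± 7.19 and 182 ± 8.73 CPM per kilobase, a gap far smaller than their spread. The heat-inducible Hsp70 genes Hspa1b and Hspa1a were last at 0.385 ± 0.369 and 0.0329 ± 0.0570 CPM per kilobase. The members together made up 1.56 to 1.63% of a library in untreated cells, 1.11 to 1.34% in RISP_WT and RISP_KO and 0.769 to 1.22% in the chimera groups. Shares from separate tables are given for each table alone and are not compared.

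In vitro members of all 3 compartments fell with antimycin A and with piericidin, fewer were called with 3-NPA, and no member was called higher. With antimycin A 19 of 35 tested members were lower (54.3%), where 8.5% of the 11689 genes tested were called lower and 6.5% higher. With piericidin it was 18 of 35 (51.4%, against 7.93% lower and 5.62% higher among all genes), and with 3-NPA 6 of 35 (17.1%, against 1.87% and 1.35%), of which 4 were cytosolic, 1 mitochondrial and 1 of the ER. The 3-NPA split of all genes, 219 lower and 158 higher, became 141 and 209 without composition factors. A gene is called at an adjusted p under 0.05 in edgeR's quasi-likelihood test with Benjamini-Hochberg adjustment over all genes. The median log2 fold change of the 35 was -0.35 with antimycin A, -0.30 with piericidin and -0.23 with 3-NPA, where the median over all genes tested was 0.02, 0.01 and -0.01. The members' share of all counts was 1.11 to 1.201% with antimycin A, 1.24 to 1.34% with piericidin and 1.28 to 1.39% with 3-NPA. The 3 comparisons share the same 3 untreated libraries, and are given side by side.

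**Figure D1:**
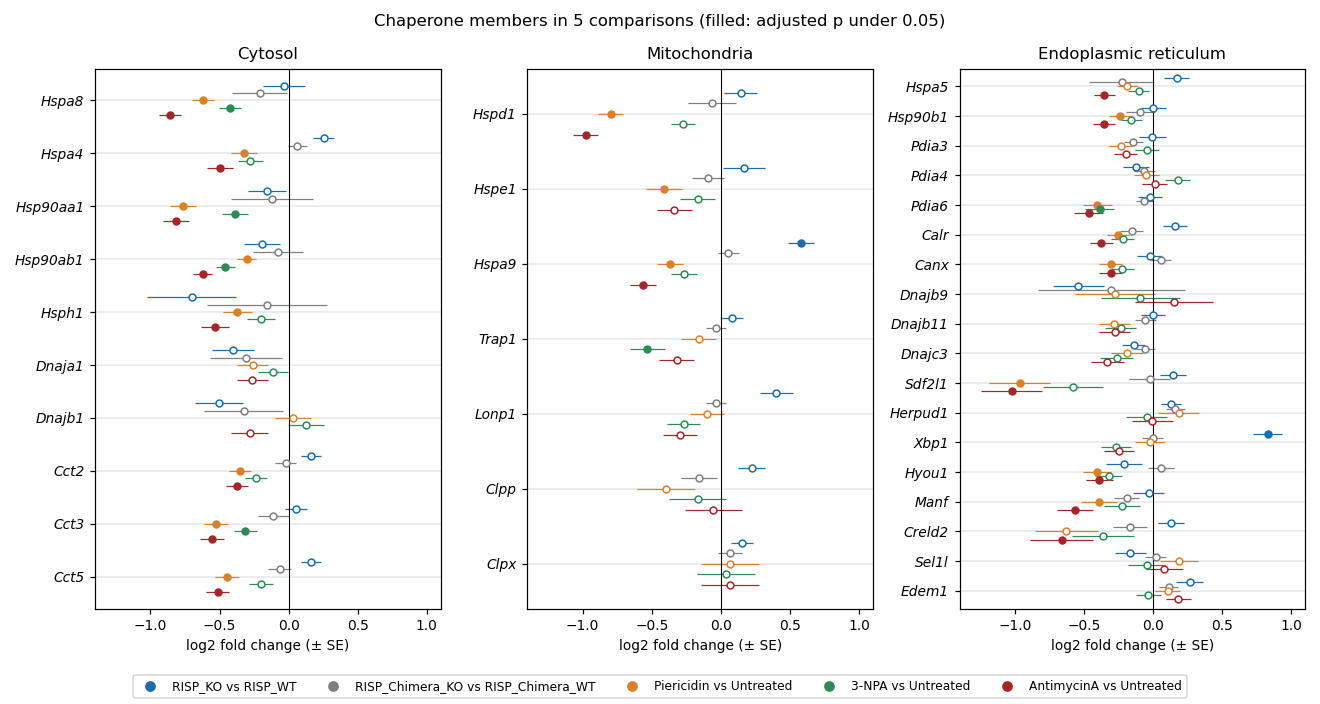
Log2 fold change with its standard error (x axis) of 35 members (y axis) in 5 comparisons, in 1 panel per compartment, filled where the adjusted p was under 0.05. The inhibitor comparisons lie mostly left of 0, filled for 19 members with antimycin A, while in RISP_KO Xbp1 (0.83) and Hspa9 (0.58) lie to the right. Hspa1a and Hspa1b are left out because they were not tested in vitro.

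The members lie well above the typical gene in abundance. The median member read 203 CPM over the 12 in vitro libraries against 38.2 CPM for the median gene tested. Among the 2610 genes at 100 CPM or more, 17.3% were called lower with antimycin A, 16.4% with piericidin and 5.52% with 3-NPA. Of the 28 members in that range it was 17 (60.7%), 17 (60.7%) and 6 (21.4%). This range was set after the data had been seen. In bulk RNA, fewer cells of a kind and less RNA per cell cannot be told apart.

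In the cytosol 8 of the 10 tested members fell with both antimycin A and piericidin. Hspa8 read 1626, 1522 and 1578 CPM in untreated cells, 946, 841 and 817 with antimycin A, 1143, 988 and 945 with piericidin, and 1218, 1118 and 1181 with 3-NPA. No treated library reached the lowest untreated one. Its log2 fold change was -0.86 ± 0.08 (SE, adjusted p = 2.12e-10), -0.62 ± 0.08 (adjusted p = 5.56e-07) and -0.43 ± 0.08 (adjusted p = 0.00112). Hsp90aa1, the inducible cytosolic Hsp90, read 611, 547 and 607 CPM untreated and 360.5, 310.3 and 333 with antimycin A. With piericidin it read 415, 314 and 309, and with 3-NPA 454, 434 and 462, again below every untreated library. It fell by 0.81 ± 0.10 (adjusted p = 3.67e-08), 0.77 ± 0.09 (adjusted p = 3.92e-07) and 0.38 ± 0.09 on the log2 scale (adjusted p = 0.0137). Hsp90ab1 fell by 0.62 ± 0.07 with antimycin A, 0.30 ± 0.07 with piericidin and 0.46 ± 0.07 with 3-NPA, with adjusted p of 1.49e-08, 0.00195 and 5.21e-05. Its 4249 ± 150 CPM in untreated cells became 2758 ± 93.4, 3440 ± 254 and 3093 ± 190 (SD, n = 3 each).

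**Figure D2:**
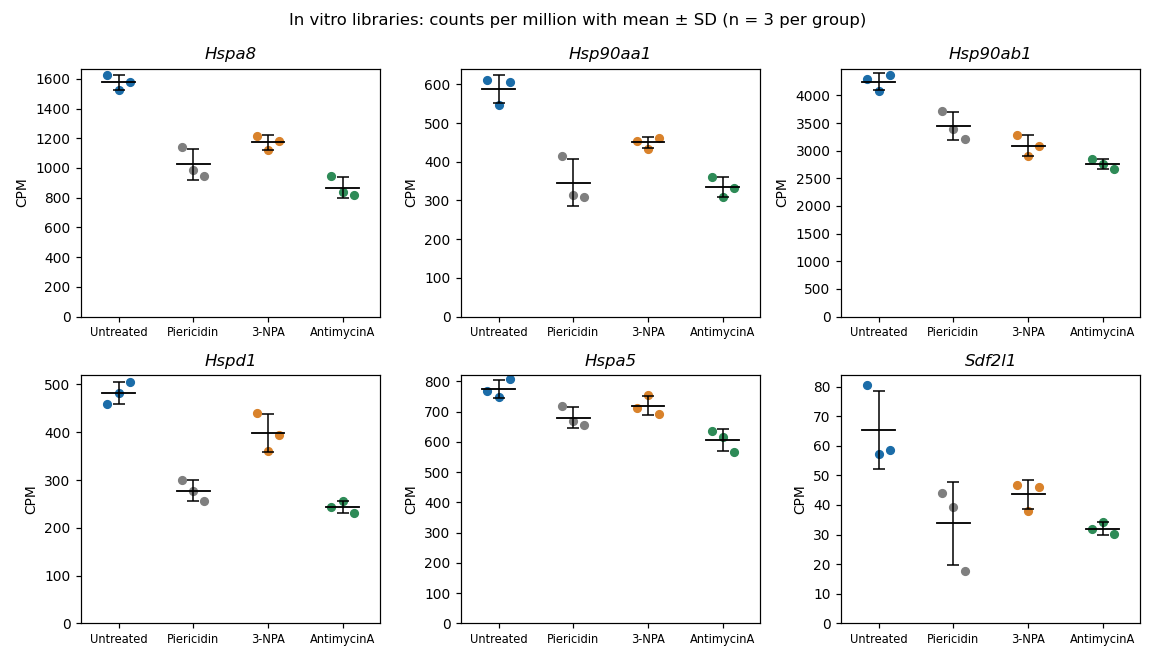
CPM (y axis, from 0) of 6 members in every in vitro library (points) by treatment (x axis), with the mean and SD of the 3 libraries. For Hspa8, Hsp90aa1 and Hsp90ab1 all 9 treated libraries lie below the 3 untreated ones, and Hspd1 with antimycin A (232 to 257 CPM) lies lowest against 459 to 505 untreated.

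The chaperonin is a ring of Cct subunits that folds actin and tubulin. Its member Cct3 changed by -0.55 ± 0.09 with antimycin A, -0.53 ± 0.09 with piericidin and -0.31 ± 0.09 with 3-NPA, from 518 ± 27.3 CPM untreated. Cct5 (-0.51 and -0.45) and Cct2 (-0.37 and -0.35) were called with antimycin A and piericidin. Of the 11 other chaperonin and prefoldin genes 6 fell with piericidin and 5 with antimycin A, with medians over the list of -0.36 and -0.31. Cct6a had the largest value with antimycin A, going from 362 ± 23.1 to 197 ± 27.9 CPM with antimycin A (-0.87 ± 0.10, adjusted p = 2.95e-08) and to 232 ± 14.2 with piericidin. Tcp1 fell by 0.63 ± 0.09 with antimycin A and 0.42 ± 0.08 with piericidin, and Cct8 by 0.52 ± 0.08 with both. With 3-NPA the same 11 genes had negative values throughout, with a median of -0.16 and Cct6a at -0.33 (adjusted p = 0.0565).

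Hspa4 (-0.50 and -0.32) and Hsph1 (-0.53 and -0.37), which recharge Hsp70, fell with antimycin A and piericidin. The J-domain proteins Dnaja1 and Dnajb1, which deliver clients to Hsp70, were not called: Dnajb1 stood at 90.7 ± 2.33 CPM untreated, 92.6 ± 3.54 with piericidin, 98.9 ± 4.21 with 3-NPA and 74.6 ± 5.98 with antimycin A. Among 21 further cytosolic co-chaperones and heat shock factor targets 6 fell with piericidin and 5 with antimycin A. They include Stip1, which links Hsp70 to Hsp90 (-0.52 ± 0.10 and -0.57 ± 0.10), the Hsp90 immunophilin Fkbp4 (-0.66 ± 0.11 and -0.54 ± 0.10) and Ppid (-0.45 ± 0.11 and -0.57 ± 0.11), with piericidin given first. The median over that list was -0.11 with piericidin, -0.19 with antimycin A and -0.07 with 3-NPA. Hspa1a and Hspa1b were not tested, since no in vitro library held more than 3 and 6 of their counts.

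In the mitochondria 3 of 7 members fell with piericidin, 2 with antimycin A and 1 with 3-NPA. Hspd1, the HSP60 subunit, read 459, 482 and 505 CPM in untreated cells, 244, 257 and 232 with antimycin A, 300.2, 277.5 and 255.6 with piericidin, and 439.5, 360.1 and 394.8 with 3-NPA. The antimycin A and piericidin libraries lay far below the untreated ones, and the 3-NPA libraries lay between, closer to the untreated. The log2 fold changes were -0.98 ± 0.09 (adjusted p = 2.69e-10), -0.80 ± 0.09 (adjusted p = 7.57e-08) and -0.27 ± 0.09 (adjusted p = 0.0817). Hspe1, its HSP10 lid encoded head to head with it, was called with piericidin (-0.41 ± 0.13, adjusted p = 0.0248) and stood at -0.34 ± 0.13 with antimycin A (adjusted p = 0.0694). The annotated ends of Hspd1 and Hspe1 overlap on opposite strands and the strand setting of the counts is not given in the sources used here, so reads there cannot be assigned.

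Hspa9, the mitochondrial Hsp70 or mortalin, read 543, 535.5 and 603.5 CPM untreated, 453, 357 and 329 with antimycin A, and 450.3, 421 and 433 with piericidin. Every treated library was below every untreated one. It fell by 0.56 ± 0.09 (adjusted p = 3.00e-05) and 0.37 ± 0.09 (adjusted p = 0.00652), and with 3-NPA it stood at -0.27 ± 0.09 (adjusted p = 0.113). Trap1, the mitochondrial Hsp90, was called with 3-NPA, at 156 ± 6.20 CPM untreated and 108 ± 7.82 with the drug (-0.53 ± 0.13, adjusted p = 0.0117). That call was lost without replicate 3 of the untreated group or replicate 2 or 3 of 3-NPA. Trap1 stood at -0.16 ± 0.12 with piericidin and -0.32 ± 0.13 with antimycin A, and the difference between piericidin and 3-NPA (0.37 ± 0.13) had an adjusted p of 0.0919, and that between antimycin A and 3-NPA (0.21 ± 0.13) one of 0.433. The proteases Lonp1, Clpp and Clpx lay between -0.40 and 0.07 in the 3 comparisons and were not called. Of 17 further mitochondrial chaperones and proteases, the prohibitin Phb2 fell with all 3 inhibitors, by 0.65 ± 0.10 with antimycin A, 0.60 ± 0.10 with piericidin and 0.47 ± 0.10 with 3-NPA. Phb fell with piericidin (-0.53 ± 0.17, adjusted p = 0.0294).

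In the ER 9 of 18 members fell with antimycin A, 7 with piericidin and 1, the disulfide isomerase Pdia6, with 3-NPA. Sdf2l1, a small partner of BiP, changed most: 80.6, 57.1 and 58.5 CPM untreated against 31.8, 34.3 and 30.0 with antimycin A, 44.1, 39.5 and 17.7 with piericidin, and 46.7, 37.9 and 46.1 with 3-NPA. The drug-treated libraries were all below the untreated ones. The log2 fold change was -1.02 ± 0.22 (adjusted p = 0.000867), -0.96 ± 0.22 (adjusted p = 0.00215) and -0.58 ± 0.22 (adjusted p = 0.14). Hspa5 read 767, 747 and 807 CPM untreated and 634, 617 and 566 with antimycin A. That fall of 0.35 ± 0.08 (adjusted p = 0.00117) was called, whereas piericidin left it at 719, 668 and 654 CPM (-0.19 ± 0.08, adjusted p = 0.115) and 3-NPA at 711, 754 and 693 CPM (-0.11 ± 0.08, adjusted p = 0.547).

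The other ER members called with both antimycin A and piericidin were Hsp90b1, the ER Hsp90 (-0.36 and -0.24), the lectin chaperones Calr (-0.37 and -0.25) and Canx (-0.31 and -0.31), Pdia6 (-0.47 and -0.40), Hyou1, an exchange factor of BiP (-0.39 and -0.41), and the secreted factor Manf (-0.56 and -0.39). Creld2, an isomerase-like ER protein, was called with antimycin A (-0.66 ± 0.23, adjusted p = 0.0428). Not called were the regulator Xbp1 (-0.25, -0.02 and -0.27 with antimycin A, piericidin and 3-NPA), the BiP partner Dnajb9 (0.15, -0.28 and -0.09), and the degradation genes Herpud1 (-0.01, 0.19 and -0.05), Sel1l (0.08, 0.19 and -0.05) and Edem1 (0.18, 0.11 and -0.03). At an unadjusted p under 0.05 with antimycin A, Edem1 was the only member with a positive value and 28 of 35 had a negative one, where 14.2% of all genes tested were lower and 12.8% higher at that level. Piericidin gave 0 positive and 23 negative members (13.5% lower and 12.2% higher among all genes), and 3-NPA 0 and 19 (9.02% and 7.4%). DESeq2 called 0 members higher with any of the 3.

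The ERSE stretches shown above can be set beside these calls. Of the 7 ER members with an ERSE match, 6 fell with antimycin A, 4 with piericidin and 1 with 3-NPA, with median log2 fold changes of -0.36, -0.25 and -0.22. The 9 ER members with a window and no ERSE match had 1, 1 and 0 falls and medians of -0.01, -0.05 and -0.05, the fall with antimycin A and piericidin being that of Sdf2l1. Those 9 include Herpud1 and Dnajb11, which hold the ERSE-II and were not called with any inhibitor. Hyou1 and Manf, which had no window, fell with antimycin A and with piericidin. In the knockout comparisons described below, no ER member with an ERSE match was called. The medians with and without a match were 0.00 and 0.00 in RISP_KO, and -0.09 and -0.03 in the chimeras. No test of this split was made, and near forms of the ERSE were not searched. The 4 sensor genes Ern1, Eif2ak3, Atf6 and Atf6b ranged from -0.12 to 0.56 in the 3 comparisons, the lowest adjusted p being 0.224. Of 23 further ER folding and degradation genes, P4hb, a disulfide isomerase, fell with antimycin A (-0.45 ± 0.09) and 3-NPA (-0.35 ± 0.09), and Derl1 with antimycin A (-0.41 ± 0.13). The medians of that list were -0.11 with antimycin A, -0.06 with piericidin and -0.07 with 3-NPA.

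Of the 6 genes of the ATF4 branch 3 were called higher with piericidin and 2 with antimycin A, with none lower, and medians of 0.64 and 0.67. Asns, asparagine synthetase, rose from 21.8 ± 2.06 to 53.4 ± 8.82 CPM with piericidin (1.29 ± 0.22, adjusted p = 5.31e-05) and to 43.5 ± 5.83 with antimycin A (0.99 ± 0.22, adjusted p = 0.00112). Trib3 rose by 1.02 ± 0.33 and 0.98 ± 0.33, and Chac1 with piericidin by 2.51 ± 0.87. With 3-NPA the only called gene of the 6 was Atf4 itself, which fell from 212 ± 12.5 to 162 ± 19.6 CPM.

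Genes of mitosis also fell in these cells. All 8 of that list fell with antimycin A and with piericidin, and 3 of 8 with 3-NPA, with medians of -2.07, -1.51 and -0.62. Mki67 went from 448 ± 73.6 CPM to 108 ± 42.5, 174 ± 24.6 and 291 ± 27.6. The plasma cell markers summed to 484 to 546 CPM untreated, 344 to 448 with antimycin A, 268 to 287 with piericidin and 310 to 452 with 3-NPA, mostly Ighm. Igkc rose with antimycin A, from 0.390 to 7.32 CPM (4.02 ± 1.04), while Tnfrsf17 and Mzb1 were at 0 in all 12 libraries. Igkc met the filter on low counts only through treated libraries, so its rise was partly fixed in advance. The part of either in the chaperone results was not tested.

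Single libraries moved the counts for piericidin and 3-NPA. The 18 members called with piericidin became 11 without replicate 3 of the untreated group or without replicate 3 of piericidin. The 6 called with 3-NPA became 2 without replicate 3 of the untreated group, replicate 2 of 3-NPA or replicate 3 of 3-NPA, and 3 without replicate 1 of the untreated group. Hspa8 and Hsp90ab1 passed in all alternatives with each inhibitor. Of the piericidin calls, those of Hspe1, Hsp90b1, Calr and Manf were each lost in 4 or more of the 6 fits that leave out 1 library, as was that of Creld2 with antimycin A in 5. Hsph1 lost its piericidin call in 3 of these fits, Hspa4 in 2, and Hspa9, Pdia6 and Canx in 1 each. With 3-NPA, Cct3 and Pdia6 lost theirs in 5 of 6, Hsp90aa1 in 4 and Trap1 in 3. Canx also lost its call with antimycin A in 1. With antimycin A the count ran from 17 to 21 when each library was left out.

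The inhibitors differed from each other in a few members. Between antimycin A and piericidin, both at 1 µM, 1 of 35 members was called, where 0.736% of all genes were. Hsp90ab1 was lower with antimycin A (-0.32 ± 0.07, adjusted p = 0.0108), at 2849, 2761 and 2662 CPM against 3714, 3392 and 3213. That call was lost without replicate 1 of piericidin or without replicate 2 or 3 of antimycin A. Hspd1 differed by -0.18 ± 0.09 and Hspa8 by -0.24 ± 0.08 there, with adjusted p of 0.494 and 0.184. Antimycin A against 3-NPA, whose doses differ, gave 4 called members, all lower with antimycin A, where 3.98% of all genes were called. They were Hspd1 (-0.70 ± 0.09, adjusted p = 1.39e-05), Hspa8 (-0.43 ± 0.08), Hsp90aa1 (-0.43 ± 0.10) and Cct5 (-0.31 ± 0.09), and the count ran from 3 to 8 when each library was left out. Cct5 lost its call without replicate 1 or 3 of 3-NPA or replicate 2 or 3 of antimycin A, and 8 were called without replicate 1 of antimycin A. Piericidin against 3-NPA gave 2 of 35 members, a share near the 4.29% called among all genes. They were Hspd1 (-0.52 ± 0.09, adjusted p = 0.000356) and Hsp90aa1 (-0.38 ± 0.10, adjusted p = 0.0148), both lower with piericidin. Without replicate 1 of piericidin 4 were called, and 1 without replicate 3 of piericidin or replicate 1 or 3 of 3-NPA. Hspd1 and Hsp90aa1 were called lower with both antimycin A and piericidin than with 3-NPA at the doses used, and the call of Hsp90aa1 against piericidin was lost without replicate 2 or 3 of piericidin or replicate 1 or 3 of 3-NPA.

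In RISP_KO against RISP_WT, in 3-week-old mice, few members were called. Of 37 tested members 2 rose, Xbp1 and Hspa9, and 1 fell, Hspa1a, where 4.78% of the 13832 genes tested were called higher and 5.08% lower. The members' share of calls was thus near that of all genes. Hspa1a met the filter on low counts only through RISP_WT, where it was high, so its call was partly fixed in advance. Their median log2 fold change was 0.00, as was that of all genes tested.

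Xbp1, the transcription factor that IRE1 activates by splicing its RNA, read 187, 217, 205 and 247 CPM in RISP_WT and 369, 357, 435 and 358 in RISP_KO. The groups did not overlap. Its log2 fold change was 0.83 ± 0.10 (SE, adjusted p = 0.000734), and the call held in all 15 alternatives, with values from 0.76 to 0.90. Gene counts do not separate its spliced from its unspliced form. Other ER members were not called, among them Hspa5 (0.17 ± 0.09), Sdf2l1 (0.14 ± 0.09), Creld2 (0.13 ± 0.09), Herpud1 (0.13 ± 0.07) and Dnajb9 (-0.54 ± 0.18, adjusted p = 0.092). Dnajb9 read 14.1 to 19.6 CPM in RISP_WT and 9.82 to 15.2 in RISP_KO. The sensor genes ranged from -0.36 to 0.07 with adjusted p of 0.471 or more.

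Hspa9 read 221, 255, 220.5 and 273 CPM in RISP_WT and 382, 321, 364 and 379.8 in RISP_KO, again without overlap. It rose by 0.58 ± 0.09 (adjusted p = 0.00367), in all 15 alternatives between 0.53 and 0.64. All 7 mitochondrial members had positive log2 fold changes, with a median of 0.17: after Hspa9 came Lonp1 (0.40 ± 0.12, adjusted p = 0.0599), the matrix protease, at 67.1 ± 4.60 CPM in RISP_WT and 88.7 ± 15.1 in RISP_KO. Clpp (0.22), Hspe1 (0.17), Hspd1 (0.15), Clpx (0.15) and Trap1 (0.08) were not called. Of 17 further mitochondrial chaperones and proteases 3 rose: the import receptor Tomm20 (0.43 ± 0.07, adjusted p = 0.0043), Atf5, a regulator of the mitochondrial stress response (1.46 ± 0.34, from 0.537 to 1.48 CPM), and Phb (0.29 ± 0.08). The median of that list was 0.13.

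**Figure D3:**
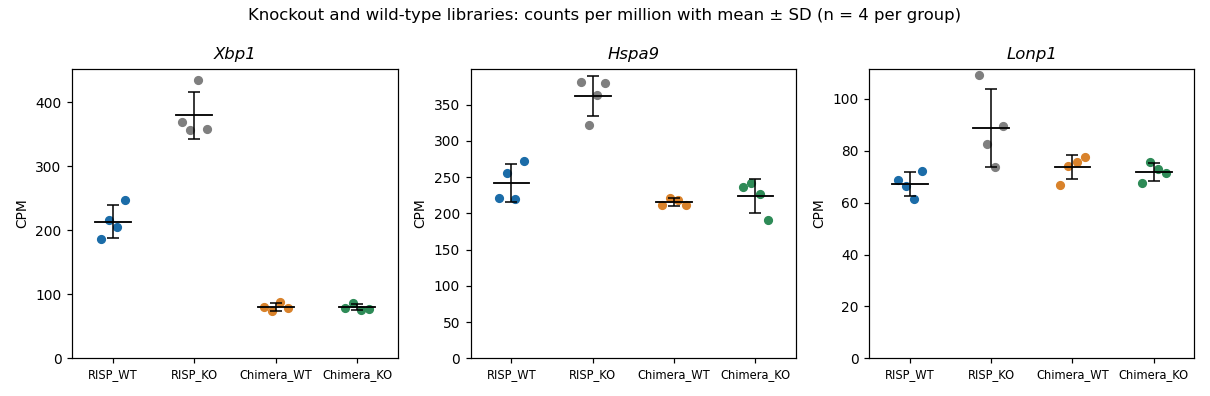
CPM (y axis, from 0) of Xbp1, Hspa9 and Lonp1 in the 16 knockout and wild-type libraries (points) by group (x axis), with the mean and SD of 4 libraries. Xbp1 lies at 357 to 435 CPM in RISP_KO above 187 to 247 in RISP_WT, while the chimera groups overlap.

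Hspa1a, a heat-inducible Hsp70, read 1.87, 0.361, 0.689 and 0.351 CPM in RISP_WT and 0.0839, 0.0704, 0.0561 and 0.173 in RISP_KO. These are 69, 14, 25 and 18 counts against 3, 2, 2 and 6. Only the RISP_WT counts met the filter on low counts, so the test could hardly have shown anything but a fall. The fitted value was -3.03 ± 0.69 (adjusted p = 0.0187), and the call of Hspa1a was lost without replicate 3 of RISP_KO and in the fit of all 16 knockout and wild-type libraries. Its near-identical copy Hspa1b (-1.71 ± 0.56, adjusted p = 0.0797) read 10.49 CPM in replicate 1 of RISP_WT, and 1.46 to 3.09 in the other 3 against 0.811 to 1.91 in RISP_KO. Reads shared by the 2 copies make either value uncertain. In the same replicate of RISP_WT the immediate early gene Fos read 444 CPM against 28.2 to 41.2 in the other RISP_WT libraries, and its part was not tested. The other cytosolic members were not called, from Hspa4 (0.25 ± 0.08, adjusted p = 0.0653), through Cct2 and Cct5 (0.16 each), to Dnajb1 (-0.50 ± 0.17) and Hsph1 (-0.70 ± 0.32). Among co-chaperones Dnajb6 rose by 0.34 ± 0.08, and Dnajb4 (-0.74 ± 0.17) and Bag3 (-0.57 ± 0.16), a heat shock factor target, fell. Cct7 alone of the 11 other chaperonin genes rose (0.37 ± 0.08).

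The ATF4 branch rose in RISP_KO in 4 of 6 genes. Asns went from 9.94 ± 3.46 to 62.1 ± 19.9 CPM (2.64 ± 0.28, adjusted p = 0.000383), Trib3 from 8.10 ± 2.23 to 27.1 ± 5.27 (1.74 ± 0.22) and Chac1 from 0.123 ± 0.121 to 3.19 ± 1.64 (4.59 ± 0.68). Chac1 met the filter on low counts only through RISP_KO, where it was high. The median of the 6 was 1.28. Markers of other cells also moved in this comparison: macrophage markers summed to 7.98 to 42.5 CPM in RISP_WT and 3.17 to 9.15 in RISP_KO, B cell markers to 44.0 to 58.3 and 24.7 to 33.7, and plasma cell markers to 741 to 910 and 564 to 747. The B cell sum was mostly Cd79b (40.3 and 22.6 CPM on average) and the plasma cell sum mostly Ighm (819 and 652 CPM). Of the B cell list, Cd22 (1.84 and 4.55 CPM) and Ebf1 (0.258 and 0.528 CPM) had higher means in RISP_KO and the others lower ones. Of 5 tested plasma cell markers 1 was called, Igkc (-2.18 ± 0.34), and Tnfrsf17 was at 0 in all 8 libraries. The mitosis genes summed to 558 to 668 CPM in RISP_WT and 675 to 1004 in RISP_KO, without overlap, and 1 of 8 was called higher, Top2a (0.50 ± 0.10), with a median of 0.40. The part of any of these lists in the results was not tested.

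In the chimeras no member was called. Of 36 tested members edgeR called 0 and DESeq2 0, where 0.167% of the 14399 genes tested were higher and 0.542% lower. Hspa1a did not meet the filter on low counts and was not tested. At an unadjusted p under 0.05 stood 1, Herpud1 (0.16 ± 0.07). The median was -0.06, with 27 negative and 9 positive values, where the median over all genes tested was 0.00. Xbp1 read 79.8, 74.1, 88.6 and 78.6 CPM in RISP_Chimera_WT and 79.4, 86.9, 76.1 and 78.0 in RISP_Chimera_KO. The 2 groups covered the same range, and the log2 fold change was -0.00 ± 0.08. Hspa9 read 211, 221, 219 and 212 CPM against 236, 243, 227 and 191 (0.05 ± 0.08, adjusted p = 0.823), and Lonp1 73.6 ± 4.69 against 71.9 ± 3.46. In the ATF4 branch Ddit3 (0.60) and Trib3 (0.61) had adjusted p of 0.17 and 0.283. The mitosis genes summed to 54.6 to 70.1 CPM in RISP_Chimera_WT and 76.1 to 172 in RISP_Chimera_KO, again without overlap. Of the 8, Cenpe was called higher (1.02 ± 0.20, adjusted p = 0.0393) and the median was 1.03, and the part of this list was not tested.

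For several heat shock genes and BiP the chimera comparison held 2 libraries that stood apart, replicate 3 of RISP_Chimera_WT and replicate 2 of RISP_Chimera_KO. Hspa1b read 47.2 and 57.2 CPM in them and 0.742 to 5.32 in the other 6. Dnajb9 read 138 and 140 CPM against 21.7 to 60.15, and Hspa5 882 and 808 against 398 to 527. Hsp90aa1 reached 592 and 575 CPM against 189 to 375, and Hsph1 377.5 and 345 against 56.1 to 206. The immediate early gene Jun was high in the same libraries, at 727 and 742 CPM against 32.4 to 269, and its part was not tested. Xbp1 was also highest in these 2 libraries, at 88.6 and 86.9 CPM, though by a smaller margin. Hspa9 read 219 and 243 CPM there, of which 219 lay within the range of the other 6 and 243 above it. Without both libraries the count of called members was still 0, and the values of Dnajb9 and Hspa5 were -0.68 ± 0.20 and -0.28 ± 0.08, with adjusted p of 0.171 and 0.149.

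**Figure D4:**
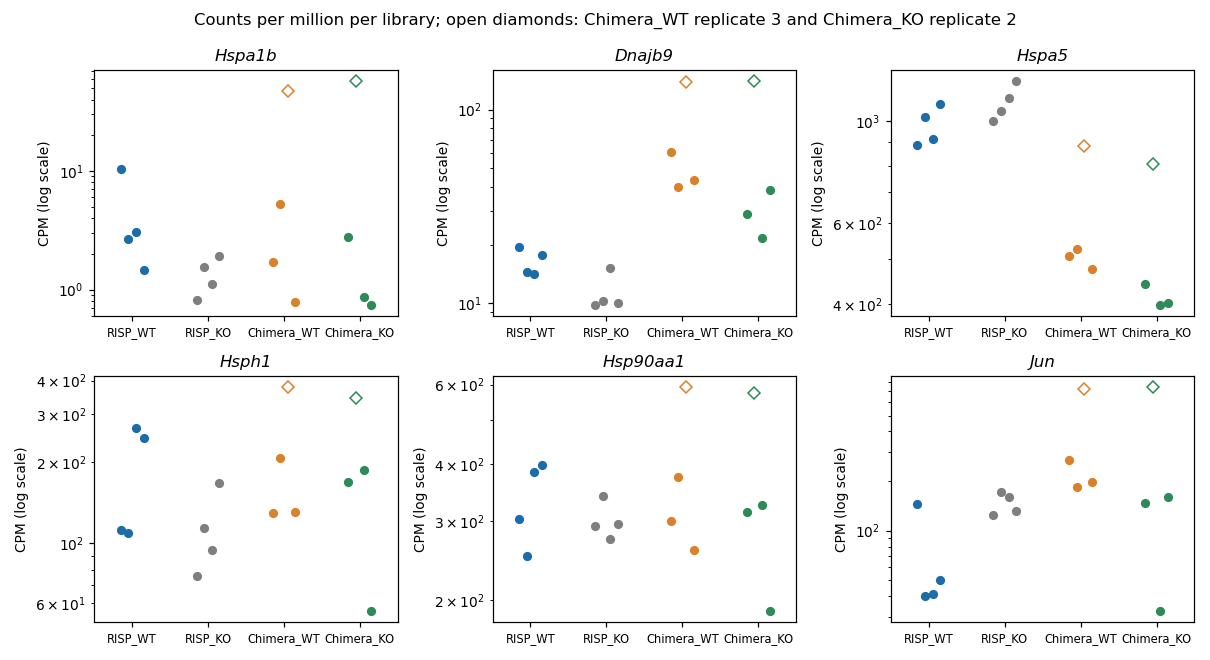
CPM on a log scale (y axis) of 5 members and Jun in each knockout and wild-type library (points) by group (x axis). Open diamonds mark replicate 3 of RISP_Chimera_WT and replicate 2 of RISP_Chimera_KO, which lie above the other 6 chimera libraries in all 6 panels, for Hspa1b at 47.2 and 57.2 CPM against at most 5.32.

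Whether the knockout effect differed between chimeras and 3-week-old mice was tested as an interaction over the 16 libraries. Of 37 members 2 were called, where 3.27% of 15580 genes were, so the count of members was near that share. Among all genes this difference was positive for 191 called genes and negative for 318, and without composition factors for 234 and 255. Xbp1 differed by -0.85 ± 0.13 (adjusted p = 0.00145), being 0.83 in 3-week-old mice and -0.00 in chimeras, and passed in all 23 alternatives. Hspa9 differed by -0.54 ± 0.13 (adjusted p = 0.0299). This call was lost in 10 of 23 alternatives, among them leaving out replicate 1 or 3 of RISP_WT, replicate 3 of RISP_KO, replicate 2 or 3 of RISP_Chimera_WT, and replicate 3 or 4 of RISP_Chimera_KO. Without the 2 chimera libraries that stand apart, Xbp1 stayed at -0.82 ± 0.14 (adjusted p = 0.00627) and Hspa9 at -0.56 ± 0.15 (adjusted p = 0.068). Lonp1 (-0.46 ± 0.15) had an adjusted p of 0.11. Age, library kit and the chimeric setting all differ between the tables and cannot be told apart.

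The members most alike across libraries were sought for Hspa5, Hspa8 and Hspd1. Over the 28 libraries, with log2 CPM centred within each table, the member most like Hspa8 was Hsp90aa1 (Pearson's r = 0.92), then Hspd1 (0.90) and Cct3 (0.87). For Hspd1 it was Hspa8 (0.90), then Cct3 (0.90) and Cct5 (0.89), all of the cytosol. Hspa5 of the ER was most like Hsp90aa1 (0.75) and Hspa8 (0.72), then Dnajb9 (0.67). Without the 2 chimera libraries that stand apart, over 26 libraries, the values of these pairs were 0.92, 0.89 and 0.86 for Hspa8 and 0.89, 0.89 and 0.92 for Hspd1. For Hspa5 they were 0.53 with Hsp90aa1, 0.67 with Hspa8 and 0.03 with Dnajb9, so the likeness to Dnajb9 rests on those 2 libraries. These values describe the libraries, which share treatment groups within each table.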

How the data were processed

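The deposited tables hold raw read counts per Ensembl gene and library, made by the authors. Per the submitters' processing notes, bcl2fastq, TopHat, HTSeq, edgeR and the build mm10 were used, with versions, strand setting and filters not stated. The 3 tables with the 28 labelled libraries entered the tests. Another one holds 11 columns of per-sample values that match no sample label, and it was left aside. The main test was that of edgeR 4.0.16 under R 4.3.3 (filterByExpr, TMM, glmQLFTest, adjusted p under 0.05 after Benjamini-Hochberg over all genes tested), with DESeq2 1.42.0 as an alternative. Each knockout comparison was fitted in its own table, the 6 in vitro comparisons in 1 fit, and the difference of knockout effects in 1 fit of 16 libraries. The SE is the unshrunken log2 fold change divided by the square root of F. CPM use library totals times the TMM factor. Libraries in vitro were the shallowest. Hspa1a and Hspa1b did not meet the filter on low counts there, and Hspa1a did not meet it in the deeper chimera libraries either. Lengths per kilobase are unions of GENCODE M21 exons, because the tables' own length column exceeds the genomic span of some genes. Scripts were tested on simulated counts with 200 changed genes per comparison, drawn over all levels. Of the 1.5-fold changes, 25.4% were recovered for RISP_KO, 43.3% for the chimeras and 8.96% for the difference of knockout effects. These shares may differ for the members, which are more abundant than most genes. A member not called may thus still have changed. Other alternatives were RLE or no composition factors, no filter, a filter of 1 CPM, the replicate number as a block, and leaving out each library. No pair of libraries was a duplicate. Named genes are all 37 members, Uqcrfs1, up to 3 called genes of each related list with the smallest p (otherwise up to 2), and the 3 members most like Hspa5, Hspa8 and Hspd1; further genes, such as Jun, Fos and markers, are given beside results and were chosen after their values were seen. The members and the lists were chosen with earlier results of these data known. Promoter windows are from RefSeq.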

Additional observations from a re-analysis of the deposited data

Results flagged for a closer look

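In groups of 4 libraries, the gap of the highest or lowest value to its neighbour was set against the whole range of the group, for each member. Of 148 groups examined 10 had a value that stood apart, and chance alone flags about 1 in 20 groups. Replicate 2 of RISP_Chimera_KO gave 4 of them: Hspa1a at 10.04 CPM, Hspa1b at 57.2 CPM, Hspa5 at 808 CPM and Dnajb9 at 140 CPM, where the next values of the group were 0.332, 2.75, 441 and 38.4 CPM. Replicate 3 of RISP_Chimera_WT gave 3, namely Hspa1a at 12.5 CPM, Hspa1b at 47.2 CPM and Hspa5 at 882 CPM, with next values of 0.496, 5.32 and 527 CPM. Replicate 3 of RISP_KO was highest for Dnajb9 at 15.2 CPM (next 10.3) and for Xbp1 at 435 CPM (next 369), and replicate 4 of RISP_KO for Hspa4 at 319.8 CPM (next 286).

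The knockout effect differed between chimeras and 3-week-old mice by -0.85 on the log2 scale for Xbp1 and by -0.54 for Hspa9 in the interaction test.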

How the results depend on the processing

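Of the members called against their control or in the difference of knockout effects, none changed direction in any alternative. The number of called members moved by more than 1.5 times under these settings. DESeq2 gave 7 in RISP_KO against 3 (adding Hspa4 and Lonp1 as higher, Hspa1b and Dnajb9 as lower), 12 with 3-NPA against 6, 10 for antimycin A against 3-NPA instead of 4, and 4 for piericidin against 3-NPA instead of 2. For the difference of knockout effects, 1 of 2 was left without a filter on low counts, with the replicate number as a block, and with 2 chimera libraries left out (an alternative chosen after seeing the data). Leaving out each library gave 3 to 4 members in RISP_KO, 0 in the chimeras throughout, 11 to 18 with piericidin, 2 to 5 with 3-NPA, 17 to 21 with antimycin A, 0 to 1 for antimycin A against piericidin, 3 to 8 for antimycin A against 3-NPA, 1 to 4 for piericidin against 3-NPA, and 1 to 2 for the difference. The causes were not tested. Deviations of libraries with the same replicate number correlated at -0.04 to 0.03 for RISP_WT with RISP_KO and -0.10 to 0.13 for the chimera groups. In vitro all 18 correlations were positive but weak (0.00 to 0.09, against -0.08 to 0.03 for other numbers), and a library was best matched by its own number in 31 of 36 cases. As they were not all over 0.1, a cut set for this check, the numbers were not taken as pairs. The in vitro matches still show that libraries of the same number tended to be alike. With the numbers as a block, 1733 of all genes were called with piericidin, 481 with 3-NPA and 1900 with antimycin A. Without the block these counts were 1584, 377 and 1754. No member called in vitro lost its call with the block. With the replicate block 7 members were called for antimycin A against 3-NPA. With 3-NPA, all genes split into 158 higher and 219 lower, and without composition factors into 209 and 141; the 6 members called there were lower under both, though Cct3 and Pdia6 lost their calls. At the depth in vitro Hspa1a and Hspa1b could not be tested, and Hspa1a was not tested in the chimeras either.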
